A study of Mus musculus with 15 samples.

Results

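The genes described here are 10 imprinted genes of the growth network of embryo and muscle, H19, Igf2, Dlk1, Meg3, Mest, Peg3, Plagl1, Cdkn1c, Grb10 and Ndn, out of 55450 genes counted in the series. They were taken as a list of symbols and mapped to the Ensembl identifiers of the gene count table, and each symbol had 1 identifier. All 10 passed the filter on low counts and were among the 16920 genes tested. The list was drawn up with results of these same mice known, so the p-values below describe these libraries and lend no independent support to the choice of genes.

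The study asked how aged muscle with few or many signs of frailty takes a bout of damaging exercise. Female C57BL/6JN mice over 17 months of age were scored for frailty, and the mice called robust in the labels (at most 1 frailty marker) form the Low groups while those called frail (2 or more) form the High groups. Low Run (n = 4) and High Run (n = 4) mice did 2 bouts of treadmill running on a 22° decline at 13 m/min, and the gastrocnemius, a calf muscle, was taken 24 h later. Low Control (n = 4) and High Control (n = 3) mice stayed sedentary. All 15 mice are of the same strain, sex and age class and no transgene is named, and frailty was observed rather than assigned, since the mice were sorted by cut-offs within their own cohort. Each library is polyadenylated RNA from 1 mouse, so the spread between libraries of a group is a spread between animals. Fewer cells of a type and less RNA per cell cannot be told apart in such whole-muscle samples.

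Imprinted genes are read from only 1 parental copy, and they tend to lie in clusters that share a control region. Paternally expressed members of the growth network, such as Igf2, Dlk1, Mest, Peg3 and Plagl1, are broadly known to favour growth of the embryo, while maternally expressed members, such as H19, Cdkn1c and Grb10, are known to restrain it. Most of them are turned down in many tissues after birth, and skeletal muscle is known as a tissue in which H19 stays on into adult life.

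Library totals ran from 19395125 to 30699216 counts, with normalization factors from 0.905 to 1.07. Levels are given as CPM, counts scaled to a common library total after normalization by the trimmed mean of M values, and always in the same order of mice: D8, D9, D11 and D98 for Low Control, D57, D61, D66 and D68 for Low Run, D23, D25 and D67 for High Control, and D49, D52, D53 and D62 for High Run. Low Control mouse D9 and High Run mouse D62 stood apart from the other libraries. On the first principal component of all tested genes, which held 27.9% of the variance, they sat at -90.3 and -58.1 while the other 13 mice lay between -19.7 and 27.8. The same 2 mice had the lowest H19, the highest Peg3 and the lowest Ndn of all 15, and the lowest summed CPM of the 7 fibroblast markers, at 153 and 169 against 353 to 1001 in the others. Whether this belongs to their state, their tissue piece or their library was not tested. Group differences of the 10 genes that rest on them, and counts of the gene lists that changed, are also given without both. Single genes named from those lists are given with all 15 mice only, so what D9 and D62 add to their differences is not shown. Sums of marker genes are given for every mouse. The fast-fibre myosin Myh4 and the muscle creatine kinase Ckm were high in every library, with minima of 31554 and 18764 CPM, which fits the labelled tissue.

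**Figure D1:**
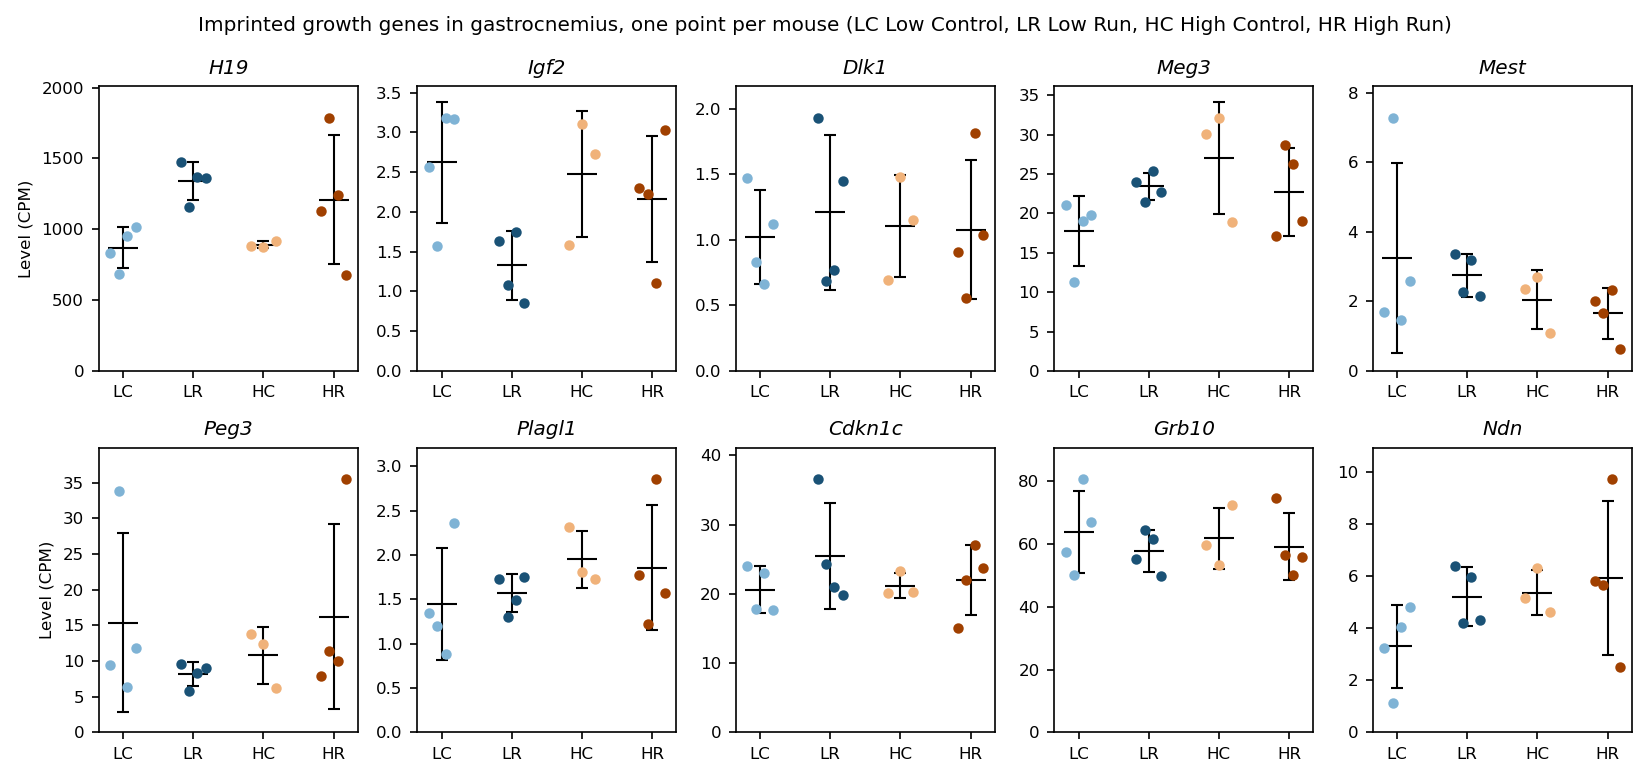
Level of each of the 10 genes in CPM (vertical axes, each from 0) for every mouse in the 4 groups, with 1 point per mouse; bars show the mean ± SD (n = 4, 4, 3 and 4). H19 lies at 1155 to 1477 CPM in Low Run mice against 685 to 1015 in Low Control mice, and Peg3 has 2 single high mice at 33.9 and 35.5 CPM.

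H19 dominated the list. Counted per exon length, as CPM per kilobase of exon (RPKM), its median over the 15 mice was 413, which placed it 64th of 16901 genes with a length, and it held 0.0637% to 0.186% of all counts of a library. The next gene, Cdkn1c, had a median of 10.8 RPKM, so that H19 stood 38.2 times higher, and in all 15 mice. Grb10 followed at 6.34 RPKM, below Cdkn1c in 14 of 15 mice. Ndn at 1.31 and Meg3 at 1.19 RPKM could not be put in order, since Ndn was the higher in only 7 mice. Peg3 (0.716), Mest (0.575), Igf2 (0.389), Plagl1 (0.220) and Dlk1 (0.184) made up the low end in median RPKM, where each gene was above the next in 10 to 12 of 15 mice. By these values Igf2 was among the lowest of the 10 genes in the muscle in which its neighbour H19 was by far the highest. The place of Igf2 among the low genes is uncertain, since 62.8% of the exon bases it is divided by are shared with the gene Gm49394. Reads on those bases may not have been counted for Igf2.

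**Figure D2:**
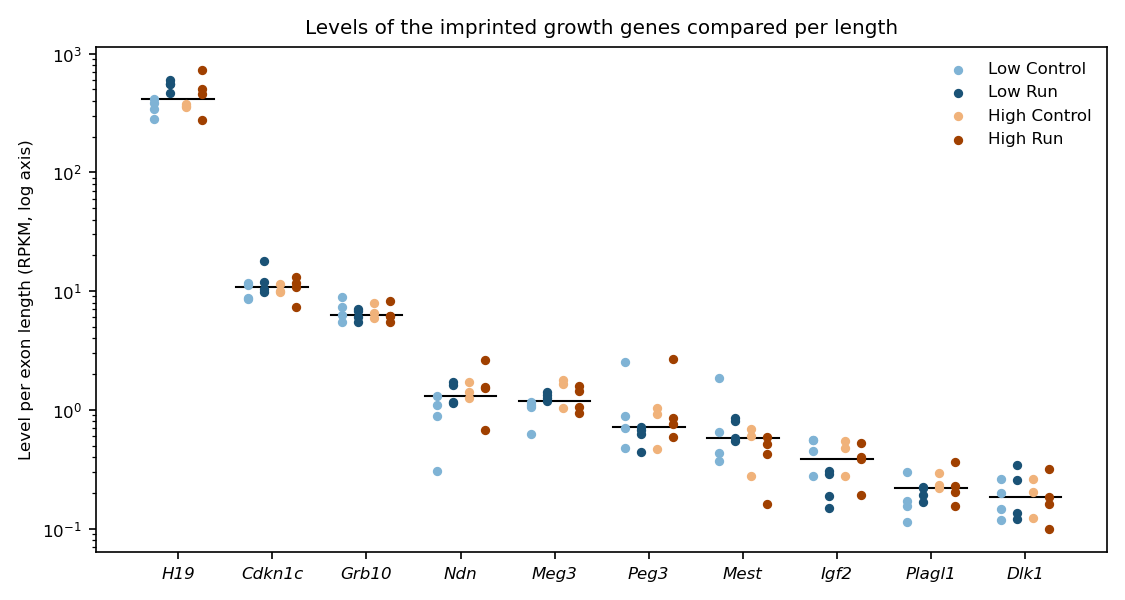
Level of each gene per exon length in RPKM (log axis) in the 15 mice, coloured by group and ordered by the median (black line). H19 has a median of 413 RPKM and Cdkn1c, the next, 10.8, and the other 8 genes have medians between 0.184 and 6.34.

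Across the 6 comparisons of the design, no member and no other gene reached a false discovery rate (FDR) under 0.1 in edgeR (all FDR and unadjusted p below are from that fit), so that 0% of genes were called in each. With other tools the count over all genes was not 0. DESeq2 called 67 genes higher and 39 lower for running averaged over Low and High mice, 8 and 2 in Low mice and 9 and 6 in High mice, and limma voom called 27 higher and 18 lower in High mice. No member was among them. At an unadjusted p under 0.05, 2 of the 10 genes differed between Low Run and Low Control, H19 higher and Igf2 lower, where 13.4% of all tested genes did. Between High Run and High Control the count was 0, with 5.18% of all genes. For the Frailty × Run interaction, the test of whether running acted differently in High and Low mice, it was 0, with 7.93% of all genes. High Control against Low Control gave 1 gene, Meg3, with 5.86% of all genes, and High Run against Low Run gave 0, with 2.51%. The effect of running averaged over Low and High mice gave H19 and Igf2 again, 2 of 10, where 8.63% of all genes passed. In a list of 10 genes each share moves in steps of 10 percentage points, so that 2 of 10 is close to these backgrounds. Running comparisons in Low and High mice use separate controls, while the averaged effect and the interaction are made from the same mice as both.

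**Figure D3:**
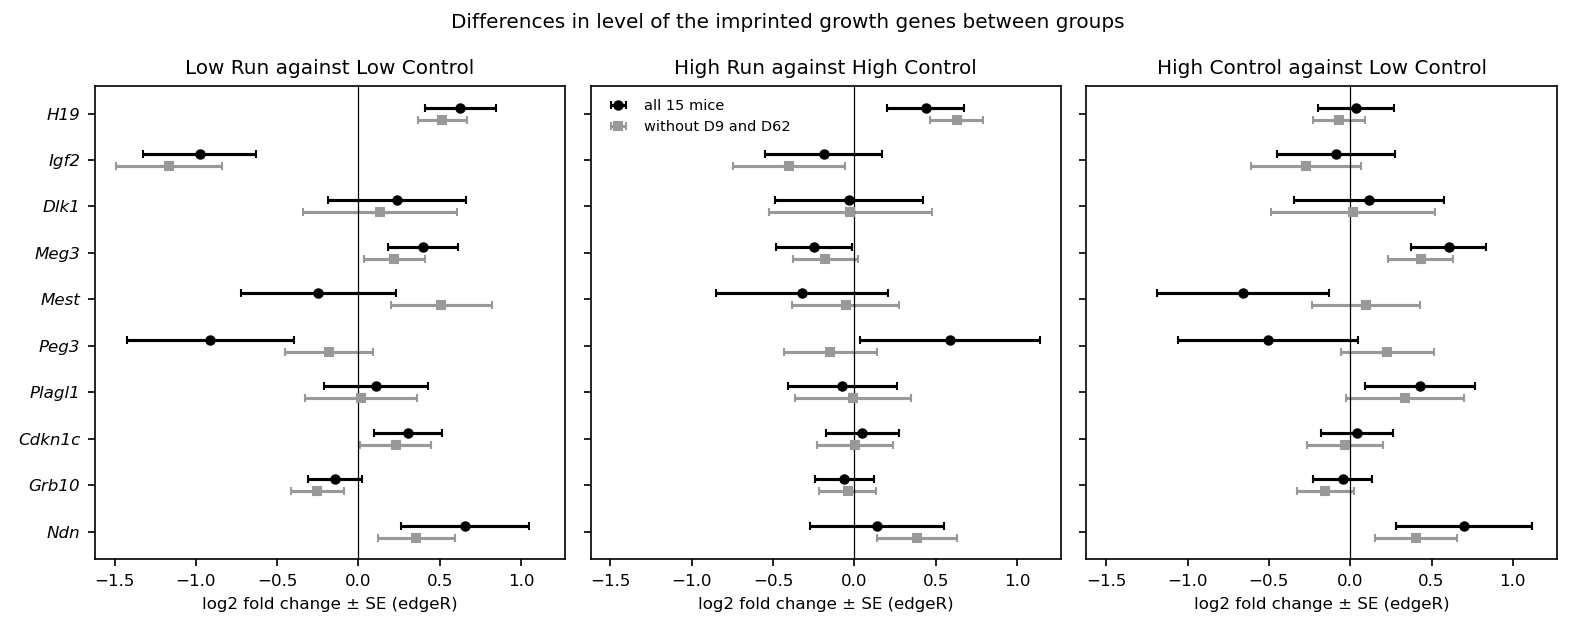
log2 fold change with its standard error (horizontal axis) of each gene in 3 comparisons, from edgeR on all 15 mice (black) and without mice D9 and D62 (grey). H19 lies above 0 in both running comparisons in both fits (0.62 and 0.52 in Low mice, 0.44 and 0.63 in High mice), while Peg3 and Mest change side in some comparisons when the 2 mice are left out.

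H19 (ENSMUSG00000000031, chr7:142575529-142578143, minus strand, GRCm38) is a long non-coding RNA made from the maternal copy. It measured 831, 685, 949 and 1015 CPM in Low Control mice and 1477, 1155, 1372 and 1363 CPM in Low Run mice. High Control mice gave 881, 874 and 920 CPM and High Run mice 1129, 1788, 1242 and 678 CPM. All 4 Low Run mice stood above all 4 Low Control mice, with means of 1342 ± 135 against 870 ± 145 CPM (SD), and in High mice 3 of 4 runners stood above the 3 controls while D62 lay below them.

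In Low mice the log2 fold change of H19 was 0.62 ± 0.22 (SE), a 1.54-fold difference that passed an unadjusted p under 0.05 and had FDR = 0.358 in edgeR. In High mice it was 0.44 ± 0.24, with FDR = 0.956. The interaction was -0.19 ± 0.32 (FDR = 0.849), so that the running differences of Low and High mice could not be told apart at this spread, and without both D9 and D62 its sign turned, at 0.11 ± 0.22 (FDR = 0.994). Averaged over Low and High mice the log2 fold change was 0.53 ± 0.16 (FDR = 0.454), and of all 8 runners 7 lay above the highest of the 7 controls.

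The 2 High Run extremes weighed on H19 in opposite directions. Without D62 the difference in High mice was 0.63 ± 0.18 and passed an unadjusted p under 0.05 (FDR = 0.896), and without D52, the mouse with 1788 CPM, it was 0.18 ± 0.21 and did not (FDR = 0.934). Without both D9 and D62, H19 differed by 0.52 in Low mice and by 0.63 in High mice on the log2 scale, with FDR of 0.65 and 0.424. Both passed an unadjusted p under 0.05, and in that fit 7.33% and 6.85% of all genes had p under 0.05 in the same comparisons. Sedentary High and Low mice were close in H19, with a log2 fold change of 0.04 ± 0.23 (FDR = 0.973).

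H19 also carries the hairpin of miR-675, which lies at chr7:142577064-142577147 (minus strand) inside an exon of 3 of its 7 annotated transcripts, at bases 997 to 1080 of one that is 2286 bases long. The hairpin is printed because it is the best known product cut from this RNA, with its mature arms in capitals as given by RefSeq (GRCm38.p6). The gene for miR-675 itself had 0 counts over all 15 libraries. All its 84 bases lie in H19 exons on the same strand, so that reads on it also lie on H19 and this 0 is no measure of it. The H19 level is that of the long RNA and says nothing of the mature miRNA.
Mir675 hairpin: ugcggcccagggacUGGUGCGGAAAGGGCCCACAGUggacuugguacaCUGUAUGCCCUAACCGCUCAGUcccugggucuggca

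Igf2, Mest and Meg3 also host a miRNA, which makes 4 hosts and 8 mature arms. miR-483 lies in an intron of Igf2 and miR-335 in an intron of Mest, while miR-770 lies in an exon of 1 of the 11 transcripts of Meg3. Their genes had 4, 1 and 0 counts over all libraries, and the 0 of miR-770 is no measure either, since all its 94 bases lie in Meg3 exons. The mature arms follow from RefSeq, with the seed (bases 2 to 8), the part that pairs with targets, in capitals, to show how the arms differ. The 8 arms had 8 different seeds.
miR-675-5p in H19: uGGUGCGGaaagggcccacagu
miR-675-3p in H19: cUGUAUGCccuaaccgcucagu
miR-483-5p in Igf2: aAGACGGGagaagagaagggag
miR-483-3p in Igf2: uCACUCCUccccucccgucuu
miR-335-5p in Mest: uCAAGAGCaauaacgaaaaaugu
miR-335-3p in Mest: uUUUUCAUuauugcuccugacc
miR-770-5p in Meg3: aGCACCACgugucugggccacg
miR-770-3p in Meg3: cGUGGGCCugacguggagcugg

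Igf2 (ENSMUSG00000048583, chr7:142650766-142666816, minus strand) encodes a fetal growth factor and lies 72623 bases from H19, with which it is known to compete for shared enhancers. It was low, with 17 to 96 counts per library. Levels were 2.56, 1.57, 3.18 and 3.17 CPM in Low Control mice and 1.64, 1.08, 1.75 and 0.852 CPM in Low Run mice. Those of High Control mice were 1.58, 3.10 and 2.73 CPM and of High Run mice 2.30, 2.23, 1.11 and 3.02 CPM. Low Run mice were the lowest group, and their range met that of Low Control mice only through D9, while the High groups overlapped widely.

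Between Low Run and Low Control the log2 fold change of Igf2 was -0.98 ± 0.35, a level 1.97-fold lower with FDR = 0.358 and an unadjusted p under 0.05 in edgeR. In High mice it was -0.19 ± 0.36 (FDR = 0.976), and the interaction was 0.79 ± 0.50 (FDR = 0.617). Without both D9 and D62 the values were -1.17 in Low and -0.40 in High mice, with FDR of 0.65 and 0.895. In GENCODE M21, 62.8% of the exon bases of Igf2 are shared on the same strand with Gm49394. Over all libraries Gm49394 had 3 counts and Igf2 809. The gene for miR-675, with all its 84 bases in H19 exons on the same strand, had 0 beside 413136 for H19. These counts show no sign of reads being counted for both overlapping genes. The Igf2 level would be too low if reads on both genes were left out of the counts, which is not given in the sources used here. Whether such reads were left out or given to Igf2 alone was not tested.

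Set against each other per length, H19 and Igf2 gave a ratio of 693 to 1014 in Low Control mice and of 1826 to 3722 in Low Run mice, without overlap. In High Control mice the ratio was 656 to 1295 and in High Run mice 522 to 2608, with D62 the lowest of all 15. Both genes contribute to this ratio, H19 by a higher and Igf2 by a lower level in Low runners. Its size would be too high in every mouse if reads on the bases that Igf2 shares with Gm49394 were left out. Over the 15 mice the 2 genes gave Pearson's r = -0.412 (permutation p = 0.127, adjusted p = 0.305 over the 4 values of 2 gene pairs) and Spearman's rho = -0.389 (permutation p = 0.153, adjusted p = 0.305). Without D52 and D62, the mice farthest from the median of H19, r was -0.472 (permutation p = 0.104). Within groups the relation was not seen, since the deviations from the group means gave r = 0.00142 (permutation p = 0.996).

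**Figure D4:**
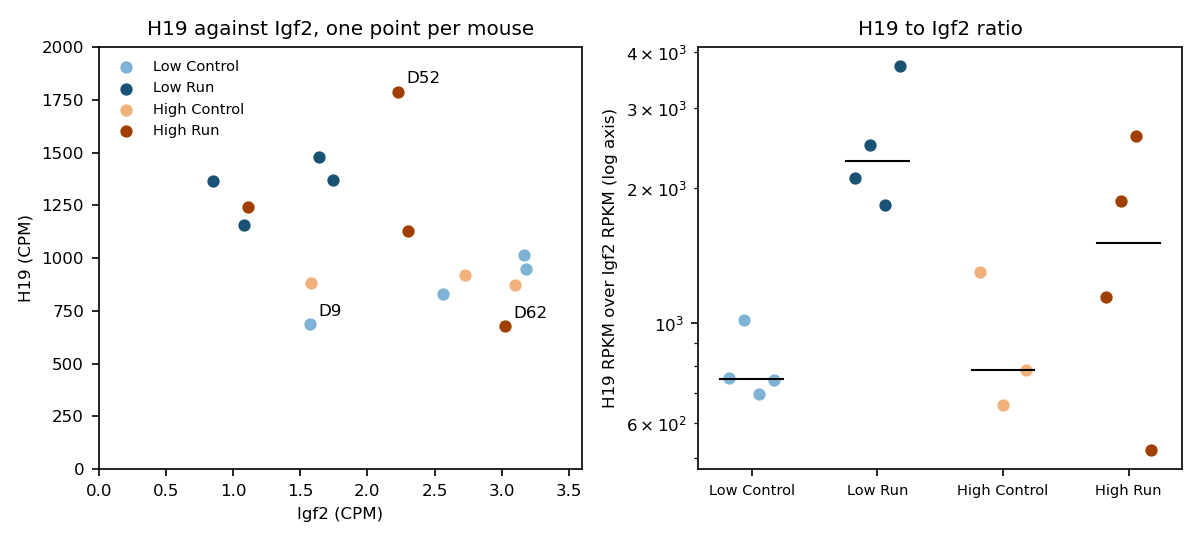
Left, H19 against Igf2 in CPM with 1 point per mouse and 3 mice named; right, the ratio of H19 to Igf2 in RPKM (log axis) per mouse with the group median as a line. Low Run ratios lie between 1826 and 3722, above the Low Control range of 693 to 1014, and mouse D62 has the lowest ratio, 522.

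Meg3 (ENSMUSG00000021268, chr12:109541001-109571726, plus strand) is the maternally expressed non-coding RNA of the Dlk1 to Dio3 domain. Low Control mice had 21.1, 11.3, 19.02 and 19.8 CPM and Low Run mice 24.0, 21.5, 25.4 and 22.8 CPM. High Control mice had 30.1, 32.2 and 18.9 CPM and High Run mice 17.1, 28.6, 26.3 and 18.99 CPM. All Low Run mice lay above all Low Control mice, though by little, and D9 was the lowest of the series. H19 and Meg3 were thus the 2 of 10 members whose Low groups did not overlap with Low Run the higher, as was true of 3.35% of all genes.

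The running difference of Meg3 was 0.40 ± 0.22 on the log2 scale in Low mice (FDR = 0.407) and -0.25 ± 0.23 in High mice (FDR = 0.958), with an interaction of -0.65 ± 0.32 (FDR = 0.6). These values leaned on D9: without it the difference in Low mice was 0.22 ± 0.20 and the interaction -0.48 ± 0.27, and without both D9 and D62 they were 0.22 ± 0.19 and -0.40 ± 0.27. Sedentary High mice had more Meg3 than sedentary Low mice, 27.03 ± 7.15 against 17.8 ± 4.4 CPM, a log2 fold change of 0.60 ± 0.23 that passed an unadjusted p under 0.05 (FDR = 0.704). D23 and D25 exceeded every Low Control mouse and D67 did not. Without D9 this difference was 0.43 ± 0.21 and no longer passed, and without both D9 and D62 it was 0.43 ± 0.20 and passed again, where 3.8% of all genes did.

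Dlk1 (ENSMUSG00000040856, chr12:109452823-109463336, plus strand) lies 77665 bases from Meg3 and encodes a membrane protein related to Notch ligands, made from the paternal copy and known from fetal and regenerating muscle. At 15 to 54 counts per library it was the lowest member per length. Its levels were 1.48, 0.828, 0.663 and 1.12 CPM in Low Control, 1.93, 0.685, 0.767 and 1.45 CPM in Low Run, 0.695, 1.48 and 1.149 CPM in High Control and 0.906, 0.557, 1.81 and 1.04 CPM in High Run mice. All 4 groups overlapped, with log2 fold changes of 0.24 ± 0.43 in Low and -0.03 ± 0.45 in High mice. Dlk1 and Meg3 did not vary together over the mice, with r = 0.136 (permutation p = 0.638, adjusted p = 0.705) and rho = 0.107 (permutation p = 0.705, adjusted p = 0.705). Without D52 and D57, the mice farthest from the median of Dlk1, r was 0.271 (permutation p = 0.379).

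Peg3 (ENSMUSG00000002265, chr7:6703892-6730431, minus strand) encodes a zinc finger protein made from the paternal copy and known in stem cells of adult tissues. Levels were 9.42, 33.9, 6.32 and 11.8 CPM in Low Control and 9.54, 5.87, 8.31 and 9.02 CPM in Low Run mice. They were 13.7, 12.4 and 6.27 CPM in High Control and 7.94, 11.5, 10.0 and 35.5 CPM in High Run mice. D9 and D62, in opposite groups, were far above the other 13 mice, which lay between 5.87 and 13.7 CPM. Its standard deviation over the 15 mice, 0.77 on the log2 scale, exceeded that of 96.8% of 2169 genes of similar level.

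These 2 mice carried the comparisons of Peg3. With all mice the interaction was 1.50 ± 0.75 (FDR = 0.6), from log2 fold changes of -0.91 ± 0.51 in Low and 0.59 ± 0.55 in High mice. Without both, it was 0.03 ± 0.39 (FDR = 1), from -0.18 in Low and -0.15 in High mice. Among the 6 comparisons without them, the difference of Peg3 was at most 0.26, between High Run and Low Run.

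**Figure D5:**
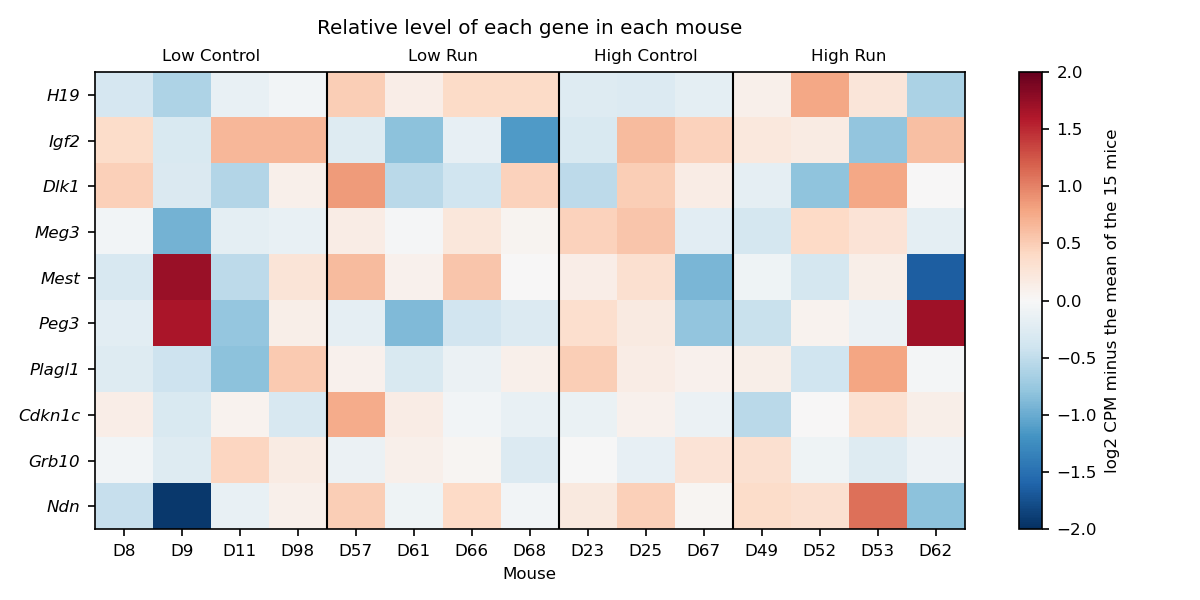
log2 CPM of each gene in each mouse minus the mean of the 15 mice (colour), with the mice ordered by group. D9 has high Mest and Peg3 and low Ndn, and D62 has high Peg3, low Mest and low Ndn, while the Low Run mice share higher H19 and lower Igf2.

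Ndn (ENSMUSG00000033585, chr7:62346569-62350262, plus strand) encodes necdin, a protein known to hold back cell division and to act in muscle stem cells. It measured 3.25, 1.12, 4.07 and 4.83 CPM in Low Control, 6.39, 4.22, 5.97 and 4.31 CPM in Low Run, 5.17, 6.31 and 4.64 CPM in High Control and 5.80, 5.67, 9.74 and 2.52 CPM in High Run mice. Peg3 was highest where Ndn was lowest, in D9 and D62, and the ratio of Peg3 to Ndn per length was 8.41 and 3.91 in these mice against 0.286 to 0.802 in the other 13. The running difference of Ndn was 0.65 ± 0.39 in Low mice (FDR = 0.435) and 0.14 ± 0.41 in High mice (FDR = 0.983) on the log2 scale. Without D9 and D62 it was 0.35 in Low and 0.39 in High mice, and averaged over both it was 0.37 ± 0.17 and passed an unadjusted p under 0.05 (FDR = 0.504), where 9.79% of all genes did. With all mice the averaged difference was 0.40 ± 0.29 and did not pass (FDR = 0.699).

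Mest (ENSMUSG00000051855, chr6:30723547-30748465, plus strand) encodes an enzyme-like membrane protein made from the paternal copy and known from growing fat and fetal tissue. It ran at 1.69, 7.29, 1.46 and 2.59 CPM in Low Control, 3.36, 2.27, 3.20 and 2.16 CPM in Low Run, 2.36, 2.695 and 1.10 CPM in High Control and 2.02, 1.67, 2.32 and 0.630 CPM in High Run mice. D9 was the highest and D62 the lowest of the series, so that here the 2 mice parted. The log2 fold change in Low mice was -0.25 ± 0.48 with all mice and 0.51 without D9 and D62, which turned its sign (FDR = 0.824 and 0.665). Of the exon bases of Mest, 23.1% overlap Copg2 on the opposite strand, and counting kept to the strand of the read pair.

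Plagl1 (ENSMUSG00000019817, chr10:13060504-13131694, plus strand) encodes a zinc finger factor that is known to act on other members of the network. Levels were 1.35, 1.20, 0.885 and 2.35 CPM in Low Control, 1.72, 1.30, 1.49 and 1.75 CPM in Low Run, 2.32, 1.81 and 1.72 CPM in High Control and 1.77, 1.22, 2.85 and 1.57 CPM in High Run mice. The groups overlapped, and the largest of its differences was between sedentary High and Low mice, at 0.43 ± 0.34 on the log2 scale (FDR = 0.722).

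Cdkn1c and Grb10 are known as brakes on growth. Cdkn1c (ENSMUSG00000037664, chr7:143458339-143461050, minus strand), the cyclin-dependent kinase inhibitor p57, lies 791523 bases from Igf2. It measured 24.0, 17.8, 23.1 and 17.6 CPM in Low Control, 36.6, 24.4, 21.1 and 19.9 CPM in Low Run, 20.1, 23.3 and 20.3 CPM in High Control and 15.0, 22.0, 26.99 and 23.8 CPM in High Run mice. D57 was the highest, and the log2 fold changes were 0.30 ± 0.21 in Low and 0.05 ± 0.22 in High mice (FDR = 0.481 and 0.99). Without D57 the log2 fold change in Low mice was 0.08.

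Grb10 (ENSMUSG00000020176, chr11:11930508-12038683, minus strand) encodes an adaptor that binds the insulin and IGF receptors and is known to dampen their signal. Its levels were 57.6, 50.2, 80.6 and 66.9 CPM in Low Control, 55.2, 64.4, 61.7 and 49.7 CPM in Low Run, 59.5, 53.4 and 72.3 CPM in High Control and 74.6, 56.5, 49.96 and 55.7 CPM in High Run mice. This was the steadiest member, with a coefficient of variation of 15.7% over the 15 mice against 22.3% to 72.0% in the other 9. Its log2 fold changes were -0.14 ± 0.17 in Low and -0.06 ± 0.18 in High mice.

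The starts of the members were searched for short motifs on both strands, in windows from 250 bases before to 50 after each start in RefSeq (GRCm38.p6). Of the members, 8 had a window, 15 windows in all, and H19 and Cdkn1c had none. The cAMP response element TGACGTCA was found in 2 of the 15 windows, in Meg3 and Peg3, where 1.79% of 32841 windows of all genes held it. The TATA box TATAAA was in 1 window, of Meg3 (13.6% of all windows), the CCAAT box CCAAT in 3 (37.4%), the GC box GGGCGG in 8 (35.7%) and the E-box CANNTG, read by myogenic factors, in 8 (72.3%). CpG pairs ran from 1 to 45 per window, with a median of 13 against 7 over all windows. Both windows with the element are printed as the 250 bases before the start, with TGACGTCA in capitals, since they belong to the only 2 members that share it. It sits at -57 to -50 in Meg3 (chr12:109540746-109540995, plus strand) and at -178 to -171 in Peg3 (chr7:6730420-6730669, minus strand).
Meg3: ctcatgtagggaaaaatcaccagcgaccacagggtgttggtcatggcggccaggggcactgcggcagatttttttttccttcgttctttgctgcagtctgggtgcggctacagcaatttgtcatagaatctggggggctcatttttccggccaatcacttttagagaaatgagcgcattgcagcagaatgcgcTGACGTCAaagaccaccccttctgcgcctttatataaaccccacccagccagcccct
Peg3: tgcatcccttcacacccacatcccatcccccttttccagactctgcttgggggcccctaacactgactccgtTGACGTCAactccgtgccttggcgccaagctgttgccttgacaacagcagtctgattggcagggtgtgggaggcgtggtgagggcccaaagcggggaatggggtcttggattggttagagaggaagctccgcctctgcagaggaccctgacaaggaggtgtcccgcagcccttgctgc

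Other imprinted genes were read from a list of 48, of which 40 were tested. None passed FDR 0.1 in any of the 6 comparisons. At unadjusted p under 0.05, 0 were higher and 8 lower in Low Run against Low Control, with a median log2 fold change of -0.07 against 0.02 over all genes, and 7.52% of all genes were lower at this p. In High mice 1 was higher and 0 lower, where 3.28% of all genes were higher. Without both D9 and D62, 1 was higher and 3 lower in Low mice, of 39 tested, and 0 were higher and 1 lower in High mice. In that fit 7.33% of all genes passed in either direction in Low mice and 6.85% in High mice. Peg10, an imprinted gene derived from a retroelement, stood at 5.11 ± 0.46 CPM in Low Control and 2.99 ± 0.63 CPM in Low Run mice, a log2 fold change of -0.77 ± 0.25 (FDR = 0.358). Asb4, a substrate receptor of ubiquitin ligases, averaged 29.1 ± 12.9 and 26.1 ± 6.2 CPM in Low and High Control against 16.3 ± 1.6 and 18.9 ± 4.0 CPM in Low and High Run mice, with an averaged log2 fold change of -0.65 ± 0.19 (FDR = 0.442). Ppp1r9a, which encodes the actin-binding protein neurabin, was at 2.64 ± 0.76 CPM in Low Control and 1.51 ± 0.31 CPM in Low Run mice, with -0.81 ± 0.26 on the log2 scale (FDR = 0.358). Calcr, the calcitonin receptor and a marker of quiescent satellite cells, was at 0.197 ± 0.081 CPM in Low Control and 0.549 ± 0.075 CPM in High Control mice, with 1.48 ± 0.52 on the log2 scale (FDR = 0.704). At 0.124 to 0.628 CPM over all mice, Calcr was near the floor of these libraries. The satellite cell markers without Des, Calcr among them, summed to 55.0 to 63.2 CPM in Low Control and 52.3 to 63.7 CPM in High Control mice, which overlapped.

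The receptors and carriers through which Igf2 acts were read from a list of 21 genes, of which 19 were tested and 0 passed FDR 0.1. In Low mice 1 was higher and 2 lower with running at unadjusted p under 0.05, and in High mice 0 were, where 13.4% and 5.18% of all genes passed in either direction. Leaving out D9 and D62 gave 0 higher and 1 lower in Low mice and 0 higher and 3 lower in High mice. That fit had 7.33% of all genes passing in Low mice and 6.85% in High mice, where 441 of 16724 genes were lower. Insr, the insulin receptor, was at 114 ± 54 CPM in Low Control and 65.6 ± 6.0 CPM in Low Run mice, a log2 fold change of -0.80 ± 0.25 (FDR = 0.358). For Igf1r, the receptor that binds both IGFs, the interaction was 0.78 ± 0.32 (FDR = 0.6), from 30.3 ± 8.1 and 23.3 ± 1.8 CPM in Low Control and Low Run against 23.8 ± 2.7 and 31.4 ± 10.7 CPM in High Control and High Run mice. Grb14, a relative of Grb10, gave an interaction of -1.21 ± 0.49 (FDR = 0.6) and Igfbp3, an IGF carrier, one of 2.43 ± 1.02 (FDR = 0.6), with a High Run group of 49.1 ± 62.5 CPM. The spread within groups was wide. Igfbp3 ranged over 16.1 to 89.5 CPM in Low Control and 16.6 to 143 CPM in High Run mice. Igf1r ranged over 22.8 to 41.7 and 22.3 to 46.9 CPM in these groups, and Insr over 76.4 to 194 CPM in Low Control mice.

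Of 13 Notch genes listed as partners of the Dlk1 protein, 12 were tested and 0 passed FDR 0.1. At unadjusted p under 0.05, 2 were lower in Low Run against Low Control, and 1 was higher and 1 lower in High Run against High Control. Of all genes, 7.52% were lower in the first comparison and 5.18% passed in either direction in the second. Without both D9 and D62, 1 was lower in Low mice, and the High counts were 1 and 1, where 7.33% and 6.85% of all genes passed in either direction. Notch4 was at 26.8 ± 12.3 CPM in Low Control and 15.9 ± 5.4 CPM in Low Run mice, and Dll4, a Notch ligand of vessels, at 12.1 ± 2.2 CPM in Low Control and 7.35 ± 0.59 CPM in High Control mice (FDR = 0.359 and 0.704). The interaction of Notch2 was 0.68 ± 0.24 (FDR = 0.6). Hes1, a Notch target, was at 22.0 ± 5.0 CPM in Low Run and 15.5 ± 2.5 CPM in High Run mice (FDR = 0.999).

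H19 is known to return in regenerating muscle, so 16 genes of regeneration and denervation were set beside it. None passed FDR 0.1. In High Run against High Control 8 were higher and 0 lower at unadjusted p under 0.05, with a median log2 fold change of 0.83 against 0.05 over all genes, where 3.28% of all genes were higher at this p. In Low mice 0 passed in either direction, with a median of 0.22. When D9 and D62 were left out, 6 were higher in High mice, with a median of 0.68, and 0 passed in Low mice. In that fit 704 of 16724 genes were higher at this p in High mice, and 7.33% passed in either direction in Low mice. The median of the list was then -0.52 in High Control against Low Control and -0.03 in High Run against Low Run. Over all genes it was -0.01 in both. Myh3, the embryonic myosin, was at 7.76 ± 3.47 CPM in High Control and 18.995 ± 7.283 CPM in High Run mice, a log2 fold change of 1.29 ± 0.32 (FDR = 0.956). Low Control and Low Run mice had 14.96 ± 1.69 and 12.5 ± 2.8 CPM, so that High Control was the lowest group. Myog, a factor of muscle differentiation, gave 1.64 ± 0.54 in the same comparison (FDR = 0.956), from 4.64 to 10.6 CPM in High Control and 8.33 to 48.5 CPM in High Run mice, which overlapped. The acetylcholine receptor genes Chrna1 and Chrng gave averaged running differences of 0.66 ± 0.21 and 1.47 ± 0.48 (FDR = 0.456 for both).

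The 10 genes with a log2 CPM most like that of H19 over the 15 mice were sought among all tested genes. They were Emp3 (r = 0.900, rho = 0.889), Nek8, Ccdc189, Bgn (r = 0.881, rho = 0.839), C230062I16Rik, Cryab (r = 0.871, rho = 0.918), Pdpn, Glipr2, Mmp12 and Tmem119, down to r = 0.866. Bgn encodes biglycan, a proteoglycan of the matrix, Cryab a small heat shock protein of muscle fibres and Mmp12 a protease of macrophages. With deviations from the group means, r stayed between 0.791 and 0.908 for these 10 genes, but their places changed. By these deviations Bgn ranked 3 and Nek8 6 of all tested genes, while Cryab ranked 37, Emp3 71 and Mmp12 173. The 15 points share their groups and the 2 mice D9 and D62, and the genes were picked from 16920, so these values are a description.

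Marker genes of other cells were summed per mouse beside H19. All 7 fibroblast markers were tested and none was at 0 in any library, and their sum ranged over 153 to 437 CPM in Low Control, 394 to 1001 in Low Run, 460 to 672 in High Control and 169 to 975 in High Run mice. The 5 tenocyte markers summed to 275 to 667, 288 to 1037, 440 to 759 and 294 to 1222 CPM in the same order of groups. The 5 macrophage markers summed to 45.1 to 88.7, 66.1 to 105, 37.7 to 58.3 and 53.8 to 114 CPM, with 1 of 5 higher in Low and 3 of 5 in High runners at unadjusted p under 0.05, and 0 and 5 of 5 without both D9 and D62. For comparison, 13.4% of all genes passed this p in either direction in Low mice, and 3.28% were higher and 5.18% passed in either direction in High mice. Without both mice 7.33% passed in either direction in Low and 6.85% in High mice, with 704 of 16724 genes higher in High mice. The 5 erythroid markers varied most, over 489 to 2380, 243 to 825, 312 to 488 and 385 to 3860 CPM, and all 5 were higher at that p in High Run against High Control, also without both mice, a fit in which 2 of 5 were lower in Low runners. Of the fibroblast markers 0 of 7 passed that p in Low and 1 of 7 in High runners, and of the tenocyte markers 1 of 5 and 0 of 5 (0 of 5 in both without D9 and D62). Fibroblast and tenocyte sums overlapped between Low Control and Low Run mice, the fibroblast sums only between 394 and 437 CPM. D9 and D62, the mice with the lowest H19, also had the lowest fibroblast sums. The single markers did not all share this. Col1a1 was at 13.3 CPM in D9 and 24.3 CPM in D62, beside a median of 86.1 over all mice. Pdgfra was at 24.8 CPM in D9, near its median of 24.6, and at 16.6 CPM in D62, its lowest value. The part of these cells in the H19 difference was not tested.

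Satellite cell markers other than Des, which muscle fibres also express, summed to 55.0 to 63.2 CPM in Low Control, 53.2 to 78.2 in Low Run, 52.3 to 63.7 in High Control and 60.6 to 89.2 in High Run mice, 6 genes in all, and with Des 1 of 7 was higher in Low runners and 0 of 7 in High runners at that p. The 8 fibre genes held 111261 to 175417 CPM in every mouse. At unadjusted p under 0.05 in Low Run against Low Control, 1 of 8 fibre genes and 2 of 6 adipocyte genes were lower, and 0 of 5 endothelial, 0 of 5 smooth muscle and pericyte and 0 of 5 Schwann cell genes passed in either direction. In High mice these counts were 1 lower, 0, 0, 0 and 1 higher. Both sets of counts stand beside the 13.4% and 5.18% of all genes that passed in either direction. Without both D9 and D62, 5 of 6 adipocyte genes and 1 of 5 Schwann cell genes were lower in Low mice, and 0 of 7 satellite cell genes passed there. Of all genes in that fit, 7.33% passed in either direction in Low mice, and 611 of 16724 were lower.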

How the data were processed

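Gastrocnemius RNA of 15 mice in 4 groups was analysed from gene counts, 55450 rows with no unused sample column. The authors deposited whole-number counts per Ensembl gene. Per the labels and methods, read pairs were aligned to mm10 with STAR 2.7.9a and unique, proper, same-strand pairs of non-mitochondrial genes were counted with featureCounts, from Subread (the processing notes name 2.0.3, and the methods another release), on Ensembl annotation; a variance-stabilized table from DESeq2 was also deposited and not used here. The table holds 19395125 to 30699216 counts per mouse, and levels under about 100 counts carry wide counting error.

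Genes were filtered with filterByExpr (16920 kept), scaled by TMM and fitted with edgeR 4.0.16 (glmQLFit, glmQLFTest; R 4.3.3), 1 mean per group, all mice sharing the dispersion, with 6 contrasts and Benjamini-Hochberg FDR over all tested genes at 0.1, the threshold used in the study. log2 CPM used a prior count of 2. RPKM divides CPM by the union of exons in GENCODE M21 (GRCm38, as mm10). Correlations used 100000 permutations, two-sided. Scripts were tested on simulated counts. Alternatives were RLE scaling, DESeq2 1.42.0, limma 3.58.1 voom with sample weights, no filter, fits on the 2 groups alone and leaving out each mouse; the fit without both D9 and D62, also used for the list counts, was added after seeing the data.

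The members, the gene lists and the marker lists were chosen with earlier results of these data known. All 10 members are named, with the 10 genes most correlated with H19, the 3 most correlated with each other member, and up to 4 genes per pathway list with the lowest unadjusted p in any contrast. Labels give no batch.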

Additional observations from a re-analysis of the deposited data

Results flagged for a closer look

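Peg3 in High Run mouse D62 stood at 35.5 CPM, while the next High Run mouse was at 11.5 CPM. The gap took up 0.872 of the range of the 4 mice, above the critical ratio of 0.829 of Dixon's test for 4 values. This was the 1 such case among 30 sets of 4 mice (10 genes in Low Control, Low Run and High Run; High Control, with 3 mice, was not tested), and chance alone gives about 1 in 20.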

How the results depend on the processing

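No member passed FDR 0.1 in any of the 6 comparisons under any alternative run (21 for 4 comparisons, 20 for the interaction and the averaged effect), where the lowest FDR was 0.123 (H19, running averaged over Low and High mice, limma voom). DESeq2, voom and edgeR without the filter called other genes in some comparisons. For the averaged effect DESeq2 called 67 higher and 39 lower, and edgeR without the filter 68 and 13. In Low Run against Low Control edgeR without the filter called 54 higher and 32 lower. Counts of members at unadjusted p under 0.05 moved more. For Low Run against Low Control the count went from 2 to 4 without the filter and was 2 to 3 when 1 mouse was left out. Over all genes, 1528 of 35419 were higher and 1809 lower at this p without the filter. These counts were 1190 and 1708 of 16820 without D98, and 442 and 404 of 16832 without D9. For High Run against High Control the count of members went from 0 to 1 (H19) with voom and without both D9 and D62, and was 0 to 1 with 1 mouse left out. With voom 1357 of 16920 genes were higher and 943 lower, and without both mice 6.85% of all genes passed. The interaction went from 0 to 1 (Igf2) with voom and 2 (Meg3, Peg3) without the filter, and was 0 to 2 with 1 mouse left out (above 0 without D8, D11, D67, D49, D52 or D53). Of all genes, 1002 of 16920 were higher and 758 lower with voom, and 1786 and 802 of 35419 without the filter. Leaving out D53 gave 1435 and 922 of 16769. High Control against Low Control went from 1 to 0 with voom and 2 without the filter. With 1 mouse left out the count was 0 to 2, at 0 without D9, D23 or D25 and 2 without D98. Over all genes, 305 of 16920 were higher and 687 lower with all mice, and 700 and 878 with voom. Without the filter these counts were 677 and 1248 of 35419, and without D9 they were 148 and 295 of 16832. Leaving out D98 made both all-gene counts larger than with all mice. High Run against Low Run went from 0 to 2 without the filter and 1 with only these groups in the fit, and was 0 to 2 with 1 mouse left out (above 0 without D9, D66, D49 or D53). Without the filter 837 of 35419 genes were higher and 547 lower, and with only these groups 196 and 120 of 15925. Leaving out D53 gave 575 and 404 of 16769. The averaged effect was 1 to 2 with 1 mouse left out, and 1 (H19) without D11, D98, D61, D68, D25, D67 or D53. Without D53, for example, 707 of 16769 genes were higher and 355 lower. The cause of these moves was not tested. The correlation of H19 with Igf2 turned to r = 0.00142 and rho = 0.104 with deviations from the group means. Of 1240 single values under alternatives, 90 had another sign than the reported one and 8 moved by over 1 SD, and 26 of 60 member values kept their sign under all; H19, Igf2, Meg3, Peg3, Cdkn1c, Grb10 and Ndn did so in Low mice, and H19, Meg3 and Mest in High mice. No paired analysis was possible because each mouse carries a number of its own in the labels. At 15 to 96 counts per library, Dlk1, Igf2 and Plagl1 are limited by depth. Mest, at 20 to 176 counts, and Ndn, at 27 to 290, are limited in the same way in their lower libraries.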

Other observations

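The other 9 genes each had different companions over the 15 mice, in log2 CPM. Ndn went with Ebpl (r = 0.953), Crtap (r = 0.952), which encodes a helper of collagen maturation, and Hspb3 (r = 0.943). Peg3 went with Tmem110 (r = 0.942, rho = 0.789), Acvr2a (r = 0.925, rho = 0.789), a receptor for activin and myostatin, and Arrdc4 (r = 0.918, rho = 0.850), with rank correlations below r, as 2 mice stand far from the rest. Meg3 went with Glod4 (r = 0.911), Helt and Hps4. Igf2 went with Eef2k (r = 0.871), Lifr and Sort1, Cdkn1c with Nostrin (r = 0.885), Dmap1 and Ccdc181, and Grb10 with Sv2c (r = 0.828), Exoc2 and Dusp3. Mest went with Fam49a (r = 0.818), 9930021J03Rik and Ogg1, Plagl1 with Fam19a4 (r = 0.878), Ywhae and Gm12988, and Dlk1 with 3 gene models, CT033749.1 (r = 0.901), Gm13743 and Gm38056. All were picked as the highest of 16920 genes and are given as a description.

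Some members varied more between mice than genes of like level. The SD of log2 CPM over the 15 mice was 0.77 for Peg3, 0.75 for Mest and 0.70 for Ndn, above 96.8%, 91.9% and 93.3% of genes of similar level, while Grb10 at 0.22 was above 40.6% and Plagl1 at 0.41 above 43.0%. D9 and D62 held the 2 highest values of Peg3, the highest and the lowest of Mest and the 2 lowest of Ndn. The SD without these mice was not computed.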
